A study of Mus musculus with 9 samples.

Results

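9630013A20Rik and 9530059O14Rik are long noncoding RNAs of oligodendrocyte precursor cells that are turning into oligodendrocytes, and they are described here in mouse spinal cord through 16 of the 69547 deposited transcripts. A transcript was taken where it belonged to either gene or where its span overlapped a transcript that did. Cord was taken on day 7 from C57BL/6 wild type mice of 7 to 9 weeks in 3 groups: HBO, which is injured cord of animals treated with hyperbaric oxygen, oxygen breathed above atmospheric pressure; injury, which is cord after spinal cord injury without that treatment; and control. The sample labels describe the control animals as uninjured while the design text of the series calls them sham; whether they had an operation was not resolved. Each group had 3 libraries of total RNA, and no label ties a library to an animal of its own, so p-values here reflect only library-to-library spread, which may be technical.

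Oligodendrocytes make the myelin that wraps axons in the central nervous system. They arise from precursor cells that stop dividing, pass through a short newly formed stage before they myelinate, and then switch on the myelin genes. 9630013A20Rik, for which RefSeq lists the synonym lncOL1, is known in mice as an RNA of the newly formed stage that promotes oligodendrocyte maturation. After spinal cord injury, oligodendrocytes die and surviving precursor cells divide and differentiate.

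The deposited counts of all listed transcripts summed to 2295433 to 3148744 per library. Levels are given in CPM, counts divided by a library size in a fixed unit so that libraries of different depth compare. The sizes are scaled by TMM, a method that sets the bulk of features to no change. A difference was called where the Benjamini-Hochberg adjusted p of edgeR's quasi-likelihood test, over all features of the table, was under 0.05. On this rule 6.06% of 26598 features were called in injury against control, 0.0150% in HBO against injury and 4.30% in HBO against control. Of the called features 59.9% were higher in injury than in control and 67.8% were higher in HBO than in control. On library totals recovered from FPKM instead of TMM sizes, which moved the median log2 change by -0.21 and -0.16, those shares were 32.3% and 53.5%.

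9630013A20Rik (ENSMUSG00000115529) lies on the minus strand of chromosome 14 at 84458639 to 84476424 (GRCm38, GENCODE M21), where it is annotated as antisense. It sits wholly inside the intron of Pcdh17 at 84448654 to 84477322; Pcdh17 runs on the plus strand and encodes a protocadherin, a cell adhesion protein. No deposited transcript carried the name 9630013A20Rik. The gene was therefore matched, after the counts at the locus had been seen, by its RefSeq accession (NONMMUT021835.2), by the span of that row (NONMMUT021833.2), and by both ends lying within 10 bases of a GENCODE transcript (NONMMUT021831.2, NONMMUT021832.2, NONMMUT021834.2 and NONMMUT021836.2). The counts of these 6 rows were summed. Another 3 rows overlapped them by span: NONMMUT021830.2 and NONMMUT094748.1, which run on past the annotated end of the gene, and the short NONMMUT021837.2.

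9530059O14Rik (ENSMUSG00000097736) lies on the plus strand of chromosome 9 at 122572499 to 122679596 and is annotated as a lincRNA, a long noncoding RNA between genes. Its nearest coding neighbours are Abhd5, which encodes an activator of triglyceride breakdown and ends 190975 bases before it, and Topaz1, a gene of male germ cells that starts 67750 bases after it. The 3 rows that carried its name, ENSMUST00000181107, ENSMUST00000181682 and ENSMUST00000181719, were summed. The other 4 rows overlapped them by span: NONMMUT071479.2, NONMMUT071480.2, NONMMUT071482.2 and NONMMUT133747.1. All but NONMMUT071482.2 also had both ends within 10 bases of a GENCODE transcript of the gene. Such ends put rows into the 9630013A20Rik sum, but here only named rows were summed, so the 2 sums follow different rules. None of the 16 spans touched an annotated coding exon.

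**Figure D1:**
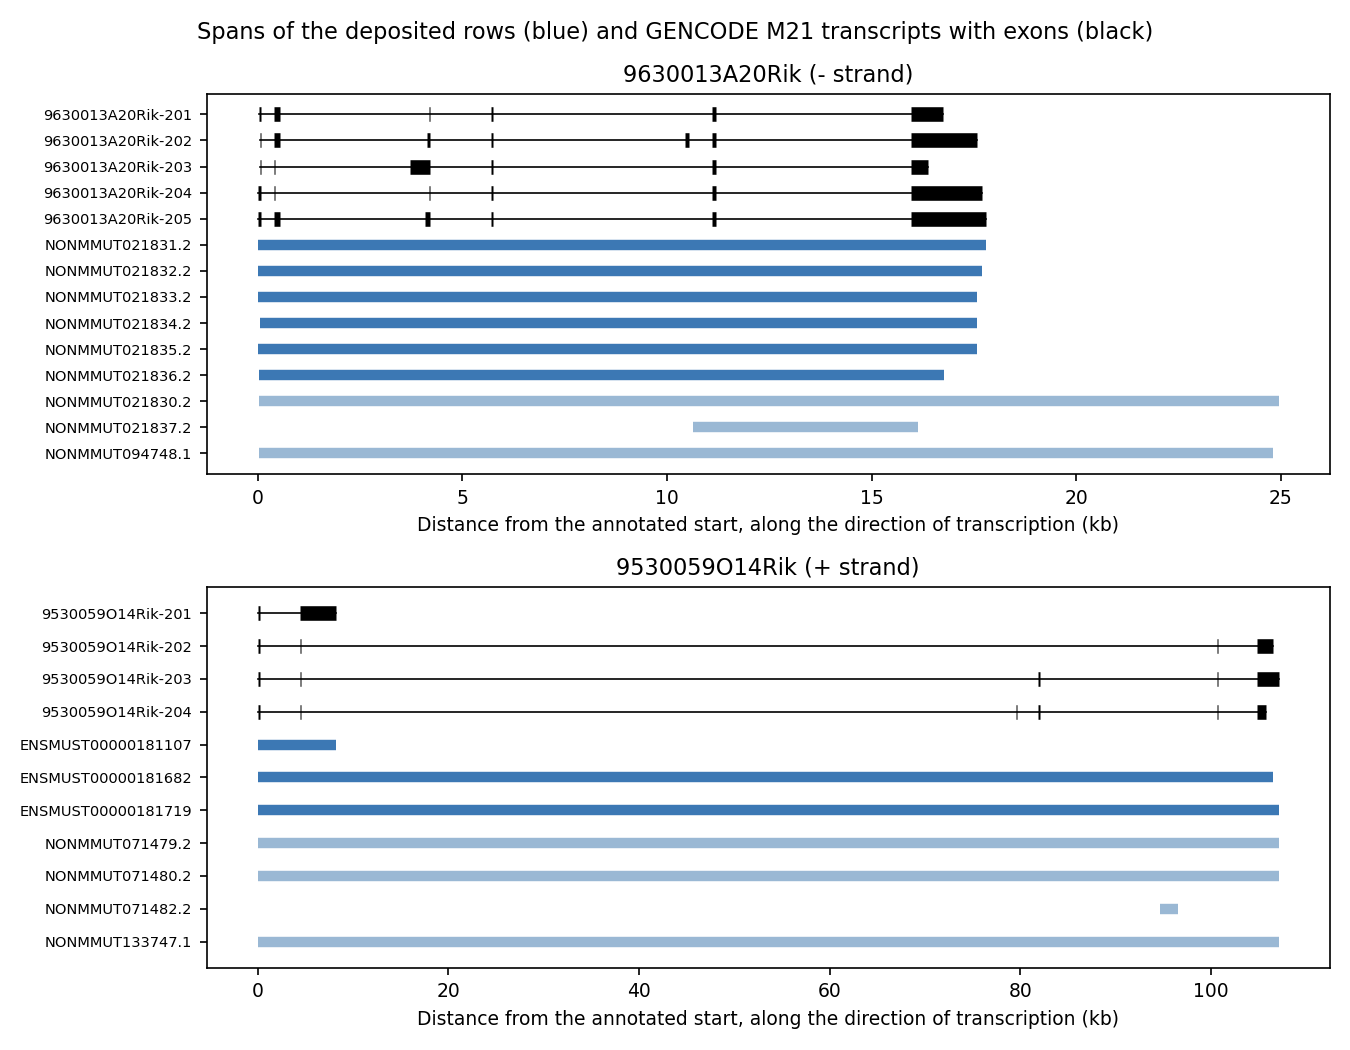
Spans of the deposited rows (dark blue for rows that were summed, light blue for rows that overlap by span) under the GENCODE M21 transcripts of each gene (black, with exons as boxes), plotted as distance in kb from the annotated start. The rows of 9630013A20Rik nearly all share one start, and ENSMUST00000181107 and NONMMUT071482.2 are the short rows of 9530059O14Rik.

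The promoters are shown because the starts of the 2 genes differ in make-up. Each covers 250 bases before and 50 after the start (RefSeq, GRCm38.p6), given 5′ to 3′ on the strand of the gene, with motif matches in capitals. For 9630013A20Rik (chr14:84476375-84476674, minus strand) these are CAGCTG and ACAATG, and for 9530059O14Rik (chr9:122572251-122572550, plus strand) CACGTG and GGGCGG or its reverse complement.
9630013A20Rik promoter: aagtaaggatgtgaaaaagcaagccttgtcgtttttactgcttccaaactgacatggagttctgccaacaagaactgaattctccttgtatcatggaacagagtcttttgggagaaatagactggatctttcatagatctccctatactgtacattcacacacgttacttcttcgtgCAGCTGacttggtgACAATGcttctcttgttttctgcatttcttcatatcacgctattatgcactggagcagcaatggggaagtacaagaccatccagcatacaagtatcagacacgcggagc
9530059O14Rik promoter: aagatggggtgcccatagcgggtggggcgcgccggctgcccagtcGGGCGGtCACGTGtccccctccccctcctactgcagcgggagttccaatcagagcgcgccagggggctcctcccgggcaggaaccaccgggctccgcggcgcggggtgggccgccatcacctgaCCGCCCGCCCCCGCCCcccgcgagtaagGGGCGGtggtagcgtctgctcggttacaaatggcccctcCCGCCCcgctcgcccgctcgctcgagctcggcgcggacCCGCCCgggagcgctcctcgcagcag

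G and C made up 42.7% of the 9630013A20Rik promoter and 75.7% of the 9530059O14Rik promoter, against a median of 52.7% over 32851 RefSeq promoters. CAGCTG, an E-box of the kind bound by OLIG2, matched once in 9630013A20Rik at -73 from the start, and 16.3% of all promoters held it. ACAATG, a SOX core motif, matched once at -59 (12.6% of all promoters). In 9530059O14Rik the E-box CACGTG matched once at -198 (7.15% of promoters) and the GC box GGGCGG 7 times (35.7% of promoters held it at least once). Both strands were searched. The other SOX core motif, ACAAAG, had no match in either window (18.7% of all promoters), and as its reverse complement is the TCF7L2 core CTTTGT, these are one search. The other TCF7L2 core, CTTTGA, and the TATA box, TATAAA, had no match either (16% and 13.6% of all promoters). No motif was found in both promoters. These matches are descriptions of sequence only.

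The rows of each gene differ in which exons they take. The deposited length of each row that spans from the first to the last annotated exon was set against every combination of the annotated inner exons. Of 13 such rows, 10 had a length that exactly 1 combination gives, and 3 rows of 9630013A20Rik (NONMMUT021835.2, NONMMUT021830.2 and NONMMUT094748.1) had a length that none gives. NONMMUT021836.2 had the length of a transcript with inner exons of 151 and 30 bases at its start, and NONMMUT021833.2 that of one with inner exons of 31 and 492 bases there. Among the GENCODE transcripts only 9630013A20Rik-203 has that 492-base exon. In 9530059O14Rik, ENSMUST00000181719 had the length of a transcript with an inner exon of 146 bases, NONMMUT071480.2 of one with that exon and another of 85 bases, and NONMMUT071479.2 of one with neither.

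These exons are shown because they are what tells the rows apart, given 5′ to 3′ on the strand of the gene from the GENCODE M21 transcripts (GRCm38). The first is the opening 120 bases of the 492-base exon of 9630013A20Rik (chr14:84472585-84472704, minus strand). The others are the 146-base exon (chr9:122654373-122654518, plus strand) and the 85-base exon (chr9:122652073-122652157, plus strand) of 9530059O14Rik. No letter is in capitals, since no motif was searched in them.
9630013A20Rik 492-base exon, opening: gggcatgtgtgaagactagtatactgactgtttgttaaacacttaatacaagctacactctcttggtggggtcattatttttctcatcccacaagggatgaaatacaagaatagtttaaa
9530059O14Rik 146-base exon: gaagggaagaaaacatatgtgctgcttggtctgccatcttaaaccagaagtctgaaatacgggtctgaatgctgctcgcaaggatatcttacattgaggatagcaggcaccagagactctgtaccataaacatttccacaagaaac
9530059O14Rik 85-base exon: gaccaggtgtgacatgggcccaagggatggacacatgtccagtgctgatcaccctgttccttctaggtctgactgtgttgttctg

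The 9630013A20Rik sum was higher in every HBO and injury library than in any control library. It stood at 156.5, 133.9 and 160.9 CPM in HBO libraries 1 to 3, at 189.9, 166.1 and 228.9 CPM in injury libraries 1 to 3, and at 36.7, 120.3 and 71.2 CPM in control libraries 1 to 3. The control libraries were the least even, with control library 2 more than 3 times control library 1. Among all features tested, 16.2% had every HBO library above every control library and 17.9% had every injury library above every control library. The separation of HBO from control rests on counting NONMMUT021833.2 with the gene. With that row left out, HBO libraries 1 and 2 lay below control library 2, while every injury library still lay above every control library. The group means were 150.4 ± 14.5 CPM in HBO, 195 ± 31.7 CPM in injury and 76.1 ± 42.0 CPM in control (SD, n = 3 each).

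Neither difference from control passed in the test of the summed rows. Injury was 2.56-fold control, a log2 change of 1.36 (SE 0.36) with an adjusted p of 0.0558 by edgeR, just short of the threshold. HBO was 1.98-fold control, a log2 change of 0.98 (SE 0.36, adjusted p = 0.128 by edgeR). The call depended on the tool and on how the rows were joined. DESeq2 called both differences, with log2 changes of 1.36 (adjusted p = 0.000659) and 0.98 (adjusted p = 0.0214), but it also called 14.8% of all features in injury against control and 14.1% in HBO against control. With all 9 rows of the locus joined, as for every other set of overlapping transcripts, injury against control passed (log2 1.31, SE 0.31, adjusted p = 0.0277 by edgeR), where 11.7% of such loci passed, and HBO against control did not (0.97, adjusted p = 0.0751 by edgeR).

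The difference between HBO and injury in the 9630013A20Rik sum did not pass, although all 3 HBO libraries lay below the lowest injury library, as they did for 4.09% of all features. The log2 change was -0.37 (SE 0.35, adjusted p = 1 by edgeR). That value rests on counting NONMMUT021833.2 with the gene: with it left out, the log2 changes were -1.21 (SE 0.45) for HBO against injury, 1.79 (SE 0.46, adjusted p = 0.0523 by edgeR) for injury against control and 0.58 (SE 0.45) for HBO against control, and none passed.

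The levels of 9530059O14Rik overlapped between the 3 groups, and no difference passed. Its summed rows had 179.8, 196.2 and 135.8 CPM in HBO libraries 1 to 3, 175.9, 191.5 and 168 CPM in injury libraries 1 to 3, and 133.6, 189 and 120.9 CPM in control libraries 1 to 3. Libraries of each group lay among those of the others. The log2 change was 0.27 (SE 0.21, adjusted p = 0.432 by edgeR) in injury against control, -0.07 (SE 0.21, adjusted p = 1) in HBO against injury and 0.21 (SE 0.21, adjusted p = 0.573) in HBO against control. Joined with the overlapping rows, the values were 0.05 (SE 0.18), 0.05 (SE 0.18) and 0.10 (SE 0.18). DESeq2 called none of the 3 differences.

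**Figure D2:**
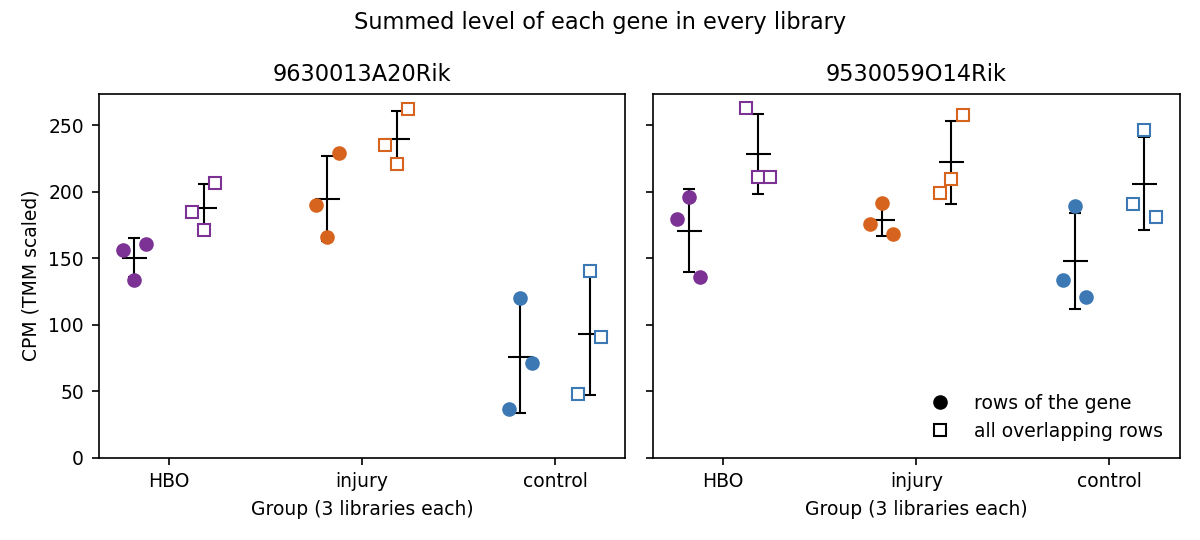
Level of each gene in CPM (TMM scaled) in every library of HBO, injury and control cord, as the rows of the gene summed (filled circles) and with all overlapping rows (open squares), with the mean and SD of 3 libraries in black. With NONMMUT021833.2 counted, the 6 HBO and injury libraries lie above the 3 control libraries for 9630013A20Rik, while the groups of 9530059O14Rik overlap.

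Per length, 9630013A20Rik was the higher of the pair in HBO and in injury. Its rows summed to 14.6 ± 3.27 FPKM in HBO, 21.4 ± 5.14 FPKM in injury and 8.22 ± 3.46 FPKM in control (SD, n = 3 each), and those of 9530059O14Rik to 9.21 ± 1.59 FPKM in HBO, 9.78 ± 0.724 FPKM in injury and 9.31 ± 2.56 FPKM in control. In control the difference between these sums was smaller than the SD of either. The sums follow different rules, so levels and ranks compare the genes only roughly. With all overlapping rows, 9630013A20Rik had 22.0 FPKM in HBO, 29.9 FPKM in injury and 11.9 ± 4.57 FPKM in control. For 9530059O14Rik these were 13.7 FPKM, 13.45 FPKM and 14.2 ± 2.64 FPKM. Among 2238 tested genes with an Ensembl name, 9630013A20Rik ranked 40 by mean FPKM in HBO, 32 in injury and 87 in control, and 9530059O14Rik ranked 70, 56 and 69. The medians of those genes were 1.29 FPKM in HBO, 1.28 FPKM in injury and 1.34 FPKM in control.

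Single rows of a locus were far less even than the sums. How reads that fit several overlapping rows were given to them is not stated in the sources used here, so a row is the authors' estimate for that transcript. NONMMUT021836.2 was the largest of the 6 summed rows of 9630013A20Rik in 7 of 9 libraries, yet had 0 counts in HBO library 1 and in control library 2. It had 0, 137 and 170 counts in HBO libraries 1 to 3, 217, 218 and 296 counts in injury libraries 1 to 3, and 47, 0 and 110 counts in control libraries 1 to 3. A count of 0 allows up to 3 counts, which is 1.16 CPM in HBO library 1 and 1.19 CPM in control library 2, for counting error only. In those libraries other rows led the sum: NONMMUT021833.2 with 272 of 403 counts in HBO library 1, and NONMMUT021831.2 with 121 of 303 counts in control library 2.

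NONMMUT021833.2, the row whose length takes in the 492-base exon, was the one with the widest gap between HBO and injury. It had 105.6, 48.1 and 53.8 CPM in HBO libraries 1 to 3, 7.96, 10.02 and 2.95 CPM in injury libraries 1 to 3, and 12.9, 27.4 and 25.1 CPM in control libraries 1 to 3. The 3 groups did not overlap, with HBO highest and injury lowest, the reverse of the order of the sum between those groups. The share of all transcripts whose 3 groups separate was not computed. HBO was 9.89-fold injury (log2 3.31, SE 0.50, unadjusted p = 8.75e-05), but the adjusted p was 0.316 by edgeR over 26850 transcripts, of which 0.0149% were called; DESeq2 called it (adjusted p = 1.27e-07), as it did 0.168% of transcripts. Against control it stood at a log2 change of -1.64 in injury (SE 0.49, adjusted p = 0.0758 by edgeR) and 1.67 in HBO (SE 0.45, adjusted p = 0.0699 by edgeR). DESeq2 called both (adjusted p = 0.0173 and 0.00935), and on FPKM library totals edgeR called injury against control (adjusted p = 0.0466). The other row whose HBO and injury libraries did not overlap was NONMMUT021836.2, lower in HBO (log2 -1.13, SE 1.30); 8.53% of all tested transcripts had no overlap between those groups.

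The remaining summed rows changed places from library to library. NONMMUT021835.2 had 21, 3 and 19 counts in HBO libraries 1 to 3, 13, 6 and 225 counts in injury libraries 1 to 3, and 0, 16 and 9 counts in control libraries 1 to 3, so injury library 3 stood apart. NONMMUT021832.2 had 40, 22 and 5 counts in HBO, 139, 123 and 0 counts in injury, and 5, 88 and 0 counts in control. In injury library 3, where it had 0 counts, NONMMUT021835.2 was at its highest. NONMMUT021831.2 ranged from 2.91 to 48.1 CPM, both in control libraries, and NONMMUT021834.2 had at most 9 counts in every library but HBO library 1, where it had 43.

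Of the rows that overlap 9630013A20Rik by span only, NONMMUT021830.2 was called by edgeR in injury against control, the one call of a member by that test under the settings used throughout. It had 11.7, 15.9 and 17.0 CPM in HBO libraries 1 to 3, 22.4, 26.6 and 14.03 CPM in injury libraries 1 to 3, and 3.03, 6.35 and 6.90 CPM in control libraries 1 to 3. Its log2 change was 1.94 (SE 0.36, adjusted p = 0.0280 by edgeR) in injury against control and 1.44 (SE 0.36, adjusted p = 0.0584 by edgeR) in HBO against control. The call was lost without control library 1, 2 or 3 or injury library 1 or 2 (log2 1.65 to 2.16 over all 9 removals). NONMMUT094748.1 had a like pattern at 13.2, 19.2 and 27.1 CPM in HBO, 20.1, 24.3 and 17.4 CPM in injury, and 6.82, 11.9 and 9.81 CPM in control, with a log2 change of 1.11 (SE 0.31, adjusted p = 0.0660 by edgeR) in injury against control. NONMMUT021837.2 had 4 to 10 counts per library and was not tested.

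The rows of 9530059O14Rik were led by ENSMUST00000181719, the largest of the summed rows in 8 of 9 libraries. It had 78.8, 136.8 and 79.2 CPM in HBO, 102.4, 130.3 and 107.8 CPM in injury, and 102.2, 110.4 and 87.9 CPM in control. ENSMUST00000181107, the short form that ends within the first 10 kb, had 99.8, 59.4 and 56.2 CPM in HBO, 54.6, 50.5 and 59.8 CPM in injury, and 31.0, 77.8 and 32.7 CPM in control, and it was the larger of the pair in HBO library 1. NONMMUT071479.2, the row whose length leaves out both the 146-base and the 85-base exon, had 168, 0 and 144 counts in HBO, 0, 0 and 192 counts in injury, and 123, 110 and 114 counts in control. In injury libraries 1 and 2, where it had 0 counts, ENSMUST00000181682 had 50 and 28 counts, against 0 to 3 in every other library; by its length that row too leaves out both exons.

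The smaller rows of 9530059O14Rik had low levels in every group. NONMMUT071482.2, which lies within an intron of the gene, had 10.5 to 13.7 CPM in HBO, 13.1 to 15.9 CPM in injury and 7.95 to 13.8 CPM in control. NONMMUT133747.1 had 2.43 to 5.82 CPM in HBO, 3.85 to 6.07 CPM in injury and 1.89 to 4.36 CPM in control. NONMMUT071480.2, the row with both inner exons by its length, had 2 to 4 counts per library.

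Of the 16 rows, 12 passed the filter on low counts. In injury against control edgeR called 1, where it called 5.68% of all 26850 transcripts, and DESeq2 called 2 (9.94% of transcripts); 10 had a log2 change above 0, and an unadjusted p under 0.05 was seen for 4 (27.5% of transcripts). In HBO against injury edgeR called 0 and DESeq2 called 1; 3 lay above 0, and an unadjusted p under 0.05 was seen for 1 (3.64% of transcripts). In HBO against control edgeR called 0, where it called 4.04% of transcripts, and DESeq2 called 2 (7.75% of transcripts); 8 lay above 0, and an unadjusted p under 0.05 was seen for 3 (25.7% of transcripts). The 5 tested rows of 9530059O14Rik had log2 changes from -0.89 to 0.62 in injury against control, and the 7 of 9630013A20Rik from -1.64 to 3.22.

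**Figure D3:**
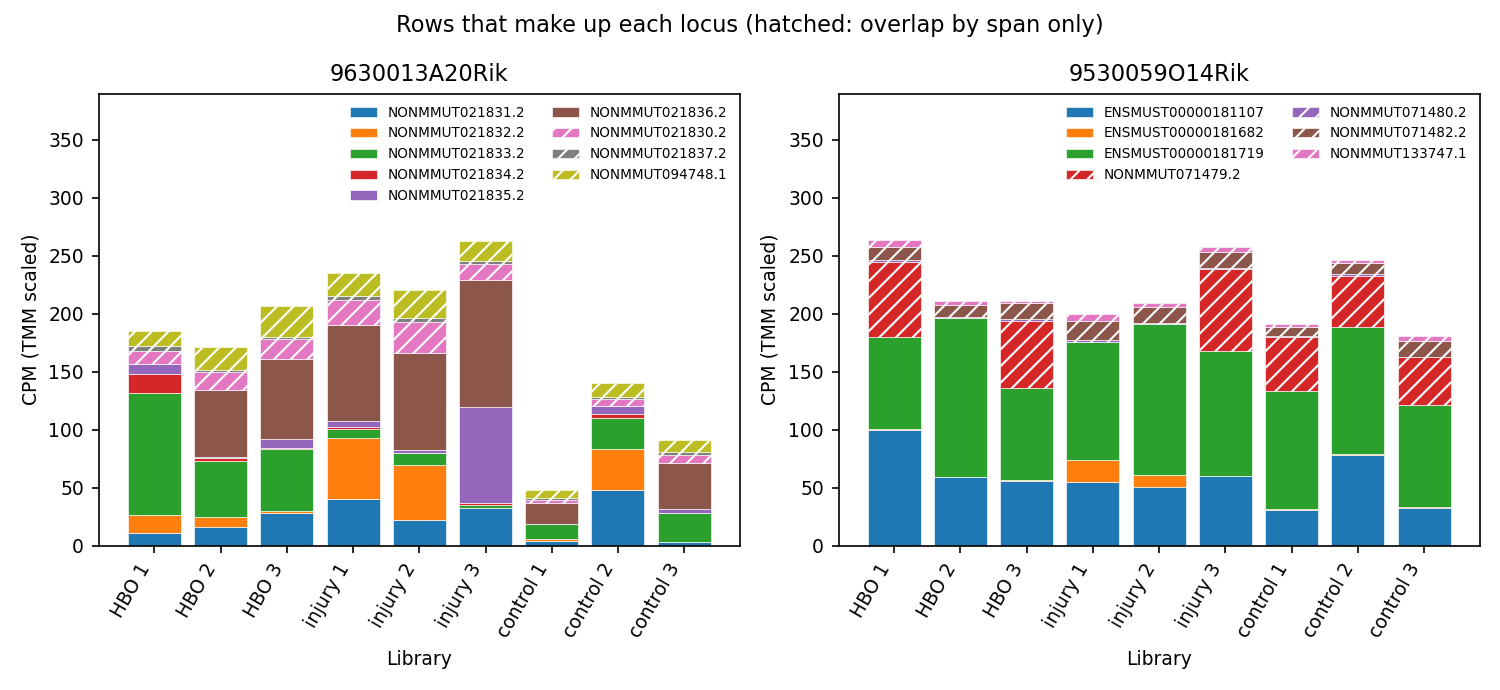
Stacked CPM (TMM scaled) of the rows of each locus in every library, with rows that overlap by span only hatched. The height of the 9630013A20Rik stack is lowest in the control libraries, and the rows that make up a stack change between libraries of one group.

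**Figure D4:**
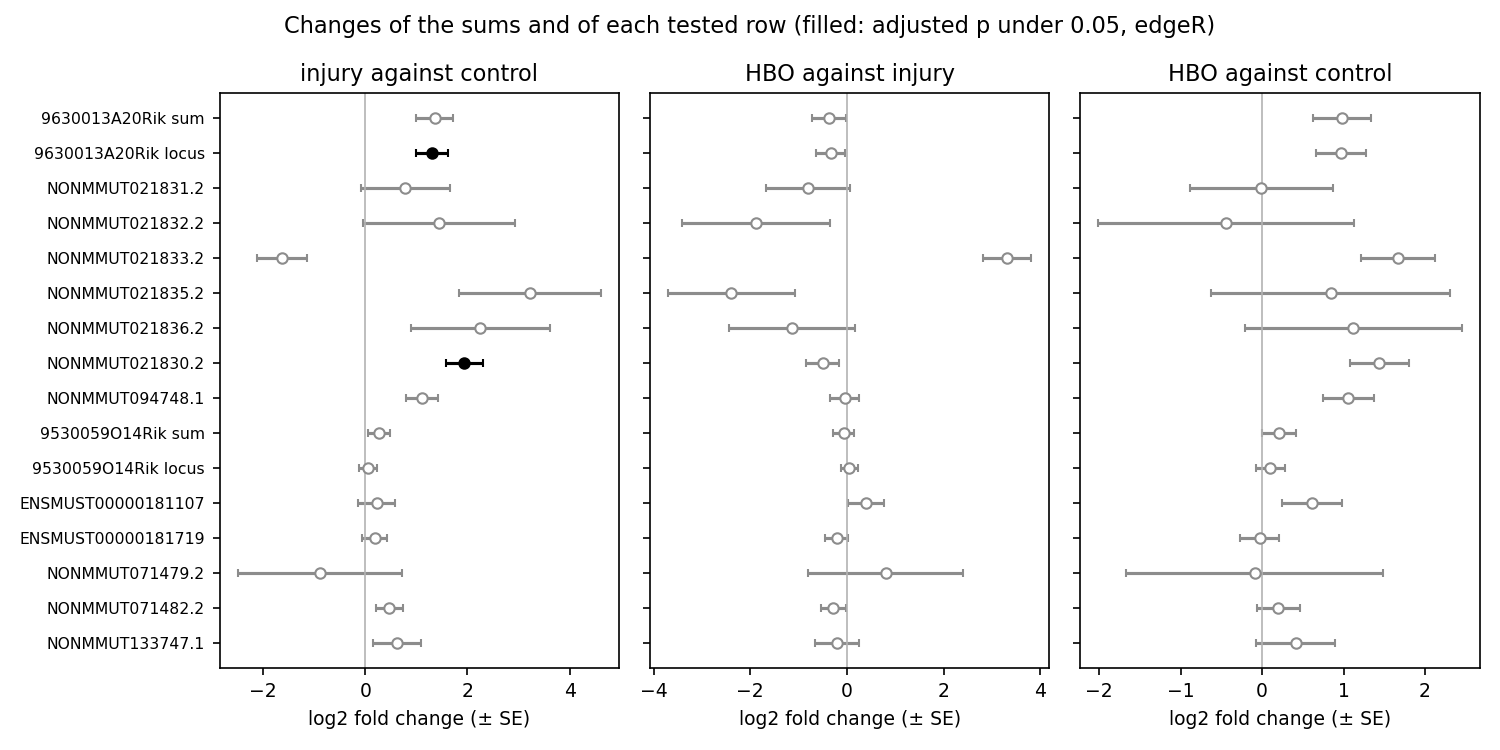
Log2 fold change with SE (edgeR, n = 3 libraries a group) of each gene's sum, of its locus with all overlapping rows, and of each tested row, in the 3 comparisons on axes of different range. In injury against control the locus of 9630013A20Rik and NONMMUT021830.2 are filled as called, and no point is filled in the other comparisons.

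The noncoding rows over the rest of Pcdh17, the gene in whose intron 9630013A20Rik lies, did not share its pattern of levels. They summed to 295.5, 212.5 and 248.6 CPM in HBO, 218.7, 229.7 and 251 CPM in injury, and 306.7, 291.1 and 329.7 CPM in control, so all 3 control libraries lay above all injury libraries. The share of all features with that order was not computed. All of these rows lie on coding exons, so they do not give the level of pre-mRNA in the intron. The largest of them, NONMMUT021840.2, had a log2 change of -0.45 in injury against control (SE 0.16, adjusted p = 0.108 by edgeR). The sources used here do not state whether counting took account of strand, so reads of an antisense RNA and of Pcdh17 pre-mRNA in the same intron cannot be told apart.

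The genes whose levels over the 9 libraries were most like those of 9630013A20Rik, by Pearson correlation of log2 CPM among 2237 named features, were Gm43200 (0.965), a clone-named gene (0.948), Gm37465 (0.943), RP24-430K15.4 (0.927) and Gm37969 (0.927). Those most like 9530059O14Rik were RP24-360F21.2 (0.918), Gm37900 (0.911), 5930420M18Rik (0.884), another clone-named gene (0.874) and Gm38109 (0.855). The 2 genes had a correlation of 0.60 with each other. The correlations are descriptions over libraries that share a scaling and 3 groups. Gm37969 averaged 14.5 ± 1.77 CPM in HBO, 15.7 ± 1.47 CPM in injury and 4.96 ± 1.86 CPM in control, and Gm43200 averaged 27.8 ± 3.39 CPM in HBO, 29.0 ± 5.26 CPM in injury and 16.8 ± 5.11 CPM in control (SD, n = 3 each).

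The lineage around the 2 RNAs was read from host-gene sums, the counts of noncoding transcripts whose span overlaps a coding gene, since the files list no messenger RNA. These sums are given as CPM on a TMM scaling of their own. Of 7069 sums tested, 6.79% were called higher and 5.57% lower in injury against control, 5.22% higher and 2.94% lower in HBO against control, and 0.0283% in HBO against injury. On the scaling of the features above, the median sum stood 0.21 higher in injury than in control on the log2 scale, and not 0.03.

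Among genes of newly formed oligodendrocytes, 3 rose in injury. Of 20 listed, 9 were tested, and in injury against control 3 rose and 0 fell, with a median log2 change of 0.46 against 0.03 for all sums. Cemip2, a hyaluronan-binding membrane protein, had sums of 53.7, 67.6 and 52.7 CPM in HBO, 81.1, 81.7 and 75.5 CPM in injury, and 29.8, 36.6 and 39.3 CPM in control. It rose in injury against control (log2 1.17, SE 0.16, adjusted p = 0.0111 by edgeR) and in HBO against control (0.72, SE 0.17, adjusted p = 0.0351 by edgeR). Over 16 alternative settings the first call was lost without control library 1, and the second was lost in 9 (adjusted p 0.0251 to 0.129). Rras2, a small GTPase of the RAS family, rose by 1.12 (SE 0.16) in injury against control, and Tns3, a tensin of focal adhesions, by 0.81 (SE 0.19). The Rras2 call was lost without control library 1, and that of Tns3 in 8 of 15 settings (adjusted p 0.00956 to 0.104). Bcas1, a marker of oligodendrocytes that are beginning to myelinate, had a log2 change of 0.35 (SE 0.12, adjusted p = 0.0914 by edgeR). Tcf7l2, a transcription factor of the newly formed stage, had 0.46 (SE 0.15, adjusted p = 0.0744 by edgeR). The remaining tested sums had 0.69 (SE 0.25) for Fam107b, 0.20 (SE 0.44) for Itpr2, -0.02 (SE 0.13) for Frmd4a and -0.03 (SE 0.29) for Fyn. In HBO against control Fyn had -0.74 (SE 0.29, adjusted p = 0.147 by edgeR), and 7 of the 9 sums lay above 0. Gpr17 and Myrf had no noncoding transcript, and the row over Enpp6 was too low to be tested. Which cells the 3 rises came from was not tested.

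Precursor cell genes moved in both directions. Of 26 listed, 16 were tested, and in injury against control 1 rose and 2 fell, with a median of -0.14. Vcan, a chondroitin sulphate proteoglycan that precursor cells share with other cells, rose by 1.14 (SE 0.17, adjusted p = 0.0129 by edgeR) in injury against control and by 1.11 (SE 0.17, adjusted p = 0.0159 by edgeR) in HBO against control; the first call was lost in 1 and the second in 3 of 16 settings. Megf11, a transmembrane protein with EGF-like domains, fell to 396 ± 44.0 CPM in HBO and 352 ± 59.0 CPM in injury, against 698 ± 92.3 CPM in control (SD, n = 3 each; adjusted p = 0.0233 for HBO and 0.0152 for injury by edgeR). Both Megf11 calls were lost without transcripts on coding exons, where the log2 change was -0.95 in HBO against control (SE 0.67, adjusted p = 0.354 by edgeR) and -0.47 in injury against control (SE 0.63, adjusted p = 0.629 by edgeR); in all, the calls were lost in 7 and 3 of 16 settings. Pcdh15, a protocadherin, fell by 0.82 on the log2 scale in injury against control (SE 0.21, adjusted p = 0.0378 by edgeR), a call lost in 8 of 16 settings, and in HBO against control its value was -0.71 (adjusted p = 0.0687 by edgeR). Megf11 and Vcan were the 2 called in HBO against control. Sums over Olig1 and Olig2, the transcription factors of the lineage, hold the same counts and had a log2 change of -0.22 (SE 0.25) in injury against control.

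Of 33 genes of mature oligodendrocytes 15 were tested, and in injury against control 2 rose and 0 fell, with a median of -0.19. Of the 15, 3 had a log2 change above 0, and the share of all sums above 0 was not computed. The count depends on the scaling: on that of the features, the median of the 15 was -0.02, against 0.21 for all sums. Apod, a lipid-binding protein also made by other cells, had sums of 933.8, 1122 and 766 CPM in HBO, 1832, 818.3 and 876.5 CPM in injury, and 266.1, 316.5 and 638 CPM in control, and rose by 1.53 in injury against control (SE 0.40, adjusted p = 0.0415 by edgeR), a call lost in 10 of 16 settings (adjusted p 0.00231 to 0.135). Nfasc, the cell adhesion protein of axons and paranodal myelin, had a log2 change of 0.47 (SE 0.13, adjusted p = 0.0476 by edgeR), a call lost in 14 of 16 settings, each library left out among them (adjusted p 0.0192 to 0.144). The myelin genes Mbp (-0.28, SE 0.15) and Mog (-0.85, SE 0.26, adjusted p = 0.0672 by edgeR) did not pass by edgeR. DESeq2 called Apod and Nfasc higher, and Mog and Tspan2 (-0.54, SE 0.16, adjusted p = 0.0590 by edgeR) lower. In HBO against control edgeR called 0 of the 15 and DESeq2 called 1 (12.3% of all sums), and for 2 the unadjusted p was under 0.05 (27.0% of all sums).

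Reads of messenger RNA can fall on noncoding transcripts that cover coding exons, and leaving these out changed which sums were called in injury against control. Of the newly formed genes Cemip2, Rras2, Fam107b and Tcf7l2 then rose, of the precursor genes Vcan and Sox5 rose and Pcdh15 fell, and of the mature genes Apod rose and Aspa, Prr5l and Ugt8a fell. Tns3, Bcas1, Mbp and Mog had no transcript left to test, since all of theirs lie on coding exons.

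In HBO against injury, none of the tested sums of the 3 lists passed by edgeR or by DESeq2, which called 0.114% of all sums. Unadjusted p was under 0.05 for 0 of the 16 precursor, 3 of the 9 newly formed and 2 of the 15 mature oligodendrocyte sums, and for 4.30% of all sums. The median log2 change was -0.06 for precursor, -0.20 for newly formed and 0.23 for mature sums.

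Of 10 names of noncoding RNAs listed for the lineage, 4 were tested and none passed by edgeR in any comparison. Neat1, the scaffold of nuclear paraspeckles and not restricted to the lineage, had 4147, 5273 and 4624 CPM in HBO, 9937, 4303 and 6750 CPM in injury, and 2011, 2239 and 4461 CPM in control, and a log2 change of 1.27 in injury against control (SE 0.36, adjusted p = 0.0659 by edgeR). The value was 1.72 and passed without control library 3. Log2 changes were 0.49 (SE 0.56) for 1700047M11Rik, 0.16 (SE 0.15) for Sox2ot, the overlapping transcript of Sox2, and -0.13 (SE 0.29) for Nkx2-2os, antisense to Nkx2-2. At an unadjusted p under 0.05 the counts of these 4 were 1 in injury against control (27.7% of all features), 0 in HBO against injury (3.63%) and 1 in HBO against control (26.0%), and DESeq2 called Neat1 in injury against control (adjusted p = 0.00583) and none otherwise.

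**Figure D5:**
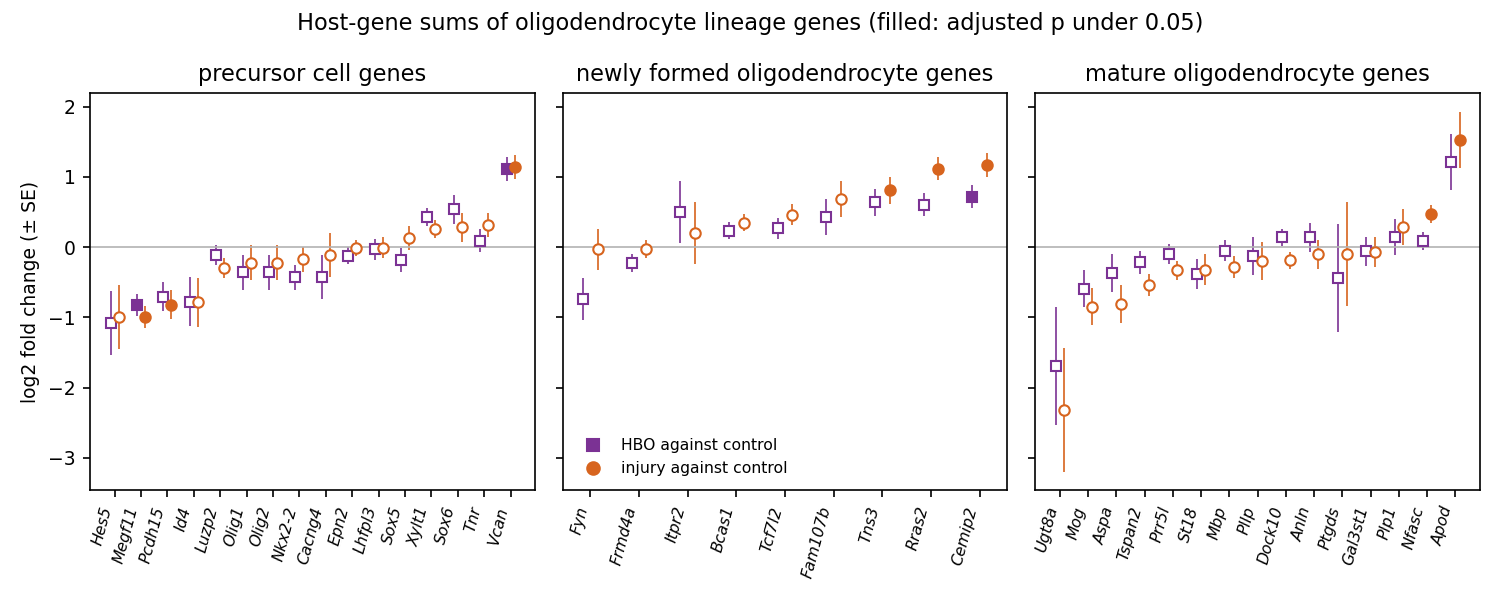
Log2 fold change with SE (edgeR, n = 3 libraries a group) of the host-gene sums of precursor, newly formed and mature oligodendrocyte genes in HBO against control (squares) and injury against control (circles). Filled points were called; Cemip2, Rras2 and Tns3 are the filled circles among the newly formed genes, and Vcan is filled in both comparisons.

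Markers of other cell types moved with the groups in the same libraries. In the newly formed list 15 of 20 genes had a noncoding transcript, and the row over Gpr37 was at 0 in every library. The whole list summed to 2328 to 2743 CPM in HBO, 2797 to 3048 CPM in injury and 2570 to 2744 CPM in control. Without Frmd4a, its most abundant gene, HBO too lay above control, at 1156 to 1183 CPM in HBO, 1198 to 1374 CPM in injury and 830 to 1081 CPM in control. Without Bcas1 as well, HBO (665.1 to 744 CPM) overlapped both injury (697.2 to 910.9 CPM) and control (505.7 to 678.2 CPM). The precursor list (18 of 26 genes) summed to 2156 to 2466 CPM in HBO, 2171 to 2462 CPM in injury and 2611 to 2802 CPM in control, with the sum over its defining gene Pdgfra at 0 in 7 of the 9 libraries, all control libraries among them, and at most 2.55 CPM in HBO and 1.80 CPM in injury. The mature list (19 of 33) summed to 6061 to 7084 CPM in HBO, 5664 to 6429 CPM in injury and 5448 to 6927 CPM in control. Its groups overlapped. Precursor sums did not overlap between injury and control, but without Megf11, the gene with the most counts, they were 1798 to 2049 CPM in HBO, 1879 to 2052 CPM in injury and 1908 to 2198 CPM in control and did.

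Neuron markers (13 of 16 genes) summed to 895.9 to 1522 CPM in HBO, 821.8 to 1328 CPM in injury and 2314 to 2659 CPM in control. Fibroblast markers (7 of 10) summed to 1791 to 3354 CPM in HBO, 567.6 to 1244 CPM in injury and 32.3 to 188.2 CPM in control. Without Col1a1, whose 3 transcripts all lie on coding exons, they summed to 246.6 to 396.3 CPM in HBO, 213.4 to 447.4 CPM in injury and 27.1 to 67.8 CPM in control, so HBO and injury overlapped. Microglia and macrophage markers (11 of 15) summed to 492.5 to 654.1 CPM in HBO, 583.8 to 864.3 CPM in injury and 261.3 to 345.2 CPM in control. Schwann cell markers (6 of 10) summed to 594.7 to 607.3 CPM in HBO, 470.4 to 676.5 CPM in injury and 314.1 to 413.1 CPM in control, nearly all of it from Drp2 and Cdh19. Without these genes they summed to 13.3 to 20.9 CPM in HBO, 8.39 to 13.5 CPM in injury and 15.8 to 20.99 CPM in control. Astrocyte markers (10 of 12) summed to 364.7 to 458.4 CPM in HBO, 391 to 516.4 CPM in injury and 261.3 to 310 CPM in control, and without Slc1a3, their most abundant gene, the groups overlapped at 50 to 103.7 CPM in HBO, 70.2 to 95.9 CPM in injury and 59.6 to 76.8 CPM in control. The part of these shifts in the level of 9630013A20Rik was not tested, and in whole cord more cells of a type and more RNA per cell cannot be told apart.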

How the data were processed

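Spinal cord total RNA of 9 libraries was sequenced, 3 each of HBO, injury and control. The deposited tables hold, per the file headers, a whole-number count, not normalized, and an FPKM value for each of 69547 long noncoding transcripts. The submitters' processing notes name HISAT2 and GRCm38; the counting program, its version and its handling of strand were not stated in these sources. Counts were summed per Ensembl name, with 6 rows added as 9630013A20Rik, which left 67919 features. The members and gene lists were chosen with earlier results of these data known, and the 6 rows after their counts had been seen.

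One fit by group in edgeR 4.0.16 (R 4.3.3; filterByExpr, minimum count 10, TMM, glmQLFit, glmQLFTest) held all 9 libraries, and standard errors come from its F statistic. Host-gene sums count every noncoding transcript over a coding gene by span, so a transcript over 2 genes counts in both. Also run were DESeq2 1.42.0, RLE scaling, fits with no filter or with a replicate block, transcripts as listed, merged overlapping transcripts, FPKM library totals, sums without coding-exon transcripts and leaving out each library. Every member is named, with the called genes of each list or, for the noncoding list, all tested ones. Bcas1, Tcf7l2, the other uncalled newly formed genes, Mbp, Mog, Tspan2, Olig1 and Olig2 were named after their values were seen. So were the called genes without coding-exon transcripts and the most abundant genes left out of marker sums. The fit was tested on simulated data in which 200 features changed in each comparison. In injury against control it called 0 of 87 features changed 2-fold and 30 of 97 changed 4-fold. In HBO against injury the numbers were 0 of 98 and 18 of 92. In HBO against control they were 0 of 95 and 32 of 93. For host-gene sums it called 12 of 95, 13 of 98 and 17 of 98 changes of 2-fold in these comparisons. A difference of that size that did not pass is thus not shown to be absent. In the data, 1612 and 1145 features were called against control, more than the 200 changed in the simulation. The adjusted threshold is stricter where fewer features change, so recovery against control may be understated. Libraries of one group differed by more than counting error (chi-square over its degrees of freedom 7.93 to 23). Listed counts were 17.1% to 19.5% of the library totals recovered from FPKM.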

Additional observations from a re-analysis of the deposited data

How the results depend on the processing

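The number of results called depended on single libraries, on the tool and on the replicate block. Called features numbered 1612 in injury against control, 4 in HBO against injury and 1145 in HBO against control. They were 3904, 46 and 3305 with DESeq2, 7, 2 and 9 with the replicate block, and 2444, 4 and 1823 with overlapping transcripts merged. Without a filter they were 308, 3 and 204, and with FPKM library totals 1980, 2 and 834. Leaving out single libraries gave 34 to 1815, 2 to 19 and 20 to 1038.

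The log2 change of 9630013A20Rik in injury against control was 1.36 by edgeR and by DESeq2, which called it, 1.31 and called in the merged locus, 1.13 with FPKM library totals and 1.02 to 1.84 over the libraries left out. In HBO against injury the range was -0.48 to -0.24. In HBO against control it was 0.98 by edgeR and by DESeq2, which called it, and 0.65 to 1.47 over the libraries left out. Its most abundant row alone, NONMMUT021836.2, gave 2.25, -1.13 and 1.12 in the 3 comparisons. 9530059O14Rik was not called in any setting. Its value in HBO against injury was 0.05 in the merged locus, and it ran from -0.18 to 0.07 over the libraries left out. In HBO against control it was -0.03 for its most abundant row, and it ran from 0.08 to 0.41 over the libraries left out; in injury against control the range was 0.15 to 0.47.

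Called member transcripts in injury against control were 0 without a filter, 0 with the replicate block, 2 with DESeq2, 2 with FPKM library totals and 0 to 2 over the libraries left out. DESeq2 called 1 in HBO against injury and 2 in HBO against control. NONMMUT094748.1 in HBO against injury was 0.03 with FPKM library totals and -0.35 to 0.17 over the libraries left out.

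Precursor sums called were 1 in injury against control and 0 in HBO against control with the replicate block, and 0 to 3 and 0 to 2 over the libraries left out. Newly formed sums called in injury against control were 6 on the scaling of the feature fit and 0 to 4 over the libraries left out. In HBO against control they were 0 with the replicate block, 0 with FPKM library totals and 3 on the scaling of the feature fit. They were 4 without coding-exon transcripts, of which 3 were higher and 1 lower, and 0 to 1 over the libraries left out. Without HBO library 3 the 1 call was Fyn, which was lower. Mature sums called in injury against control were 1 with RLE scaling, 0 without a filter, 4 with DESeq2 and 0 with the replicate block. They were 1 with FPKM library totals, 4 without coding-exon transcripts and 0 to 1 over the libraries left out. The single call was Apod (higher) without control library 3, Tspan2 (lower) without injury library 3, or Mog (lower) without HBO library 2. In HBO against control, mature sums called were 1 with DESeq2 and 1 without coding-exon transcripts. Without control library 1, no newly formed, precursor or mature sum was called in injury against control. Nfasc in HBO against control was -0.09 without coding-exon transcripts and -0.04 to 0.16 over the libraries left out. In injury against control, Sox2ot was -0.06 with FPKM library totals, and Nkx2-2os ran from -0.28 to 0.08 over the libraries left out. The cause of these shifts was not tested. FPKM library totals for the host-gene sums, the scaling of the feature fit, the sum without NONMMUT021833.2 and all settings for single member transcripts were chosen after seeing the data.

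The replicate numbers of the labels share only a number: same-numbered libraries had correlations of -0.0548 to 0.0532. With the block, 9630013A20Rik stood at 1.43 in injury against control, -0.37 in HBO against injury and 1.07 in HBO against control, and 9530059O14Rik at 0.30, -0.08 and 0.21. Rows with few counts are the least precise: 4 of the 16 member transcripts had counts too low to be tested.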
